A study of Mus musculus with 5 samples.

Results

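The complement genes considered here encode early components of the complement cascade, its alternative-pathway protease and its main early inhibitor. The list names 9 genes, *C1qa*, *C1qb*, *C1qc*, *C1s*, *C2*, *C3*, *Cfb*, *Cfd* and *Serping1*, and its probe sets were chosen as all those that the platform annotation maps to one of these genes alone. By this rule 7 of the 9 genes, among 18193 genes with a probe set of their own, had 11 of the 45037 probe sets on the array, while *C3* and *Cfd* were not analysed here, and *C1s* was found under its current symbol *C1s1*. All 11 passed the filter on dim probe sets and were among 27022 probe sets tested. Each was read on 5 arrays of dorsal skin, 1 array per mouse, from 2 *Clock* mutants and 3 littermates that were wild type (WT), all at postnatal day 23 and all staged as telogen, the resting phase of the hair cycle. Of the mutants, replicate 1 was male and replicate 2 female, and the WT mice were all female. The comparison asks how skin of the mutants differs shortly before their next hair growth phase comes late. *Clock* encodes a transcription factor of the circadian clock. The mutant allele is present in every tissue of the mouse and not in skin alone, the strain background was C57BL/6J, and the hour of collection is not given for these arrays. The labels do not state zygosity, and where the study stages the hair cycle of its *Clock* mutants it calls them homozygous. RNA came from whole dorsal skin, so that fewer cells of a type and less RNA per cell cannot be told apart.

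Complement is a set of plasma and tissue proteins that mark microbes and dying cells and call in phagocytes. In the classical pathway C1q, a recognition molecule built of A, B and C chains, carries the proteases C1r and C1s. Of these, C1s cleaves C4 and C2 to form a convertase for C3. In the alternative pathway factor B, encoded by *Cfb*, takes the place of C2, and factor D, encoded by *Cfd*, cleaves it. The C1 inhibitor, encoded by *Serping1*, inactivates C1r and C1s. In skin, macrophages are a main source of C1q, whereas fibroblasts and other stromal cells make much of the C1r, C1s and C1 inhibitor.

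The genes of the C1q chains lie side by side on chromosome 4, in the order *C1qb*, *C1qc*, *C1qa*, with no other coding gene between them, and *Cfb* and *C2* are likewise neighbours on chromosome 17. Of the 9 genes, 5 had an upstream window in the RefSeq promoter table of build GRCm38.p6. The windows of *C1qb* and *C1qc* are shown because these neighbouring genes encode chains of 1 protein and their mean intensities in mutant skin lay on the same side of WT. Each is the 250 bases before the start of the gene, read on the minus strand, at chr4:136886201-136886450 for *C1qb* and chr4:136892915-136893164 for *C1qc*, and capitals mark matches on either strand to GAGGAA, the core bound by the myeloid factor PU.1, and to AGGTCA, the half-site of ROR and REV-ERB receptors.
C1qb: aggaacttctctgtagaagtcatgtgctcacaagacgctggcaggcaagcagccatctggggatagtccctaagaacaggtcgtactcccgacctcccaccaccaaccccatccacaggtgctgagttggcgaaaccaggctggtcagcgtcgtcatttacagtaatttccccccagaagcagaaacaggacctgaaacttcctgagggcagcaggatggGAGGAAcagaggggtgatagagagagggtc
C1qc: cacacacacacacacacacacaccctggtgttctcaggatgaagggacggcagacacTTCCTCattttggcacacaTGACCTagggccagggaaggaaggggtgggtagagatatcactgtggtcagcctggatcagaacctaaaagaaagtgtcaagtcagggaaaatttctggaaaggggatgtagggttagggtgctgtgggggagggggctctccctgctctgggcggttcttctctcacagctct
GAGGAA began 30 bases before the start of *C1qb*, and its reverse complement began 193 bases before the start of *C1qc*, followed by the reverse complement of AGGTCA at 174 bases. Of 32851 windows of this length, 23.3% held GAGGAA and 14.0% held AGGTCA. The E-box CACGTG and the related CACGTT, bound by CLOCK and BMAL1, and the D-box forms TTATGTAA and TTACGTAA were searched on both strands as well. None of these was present in the windows of *C1qb*, *C1qc* or *C1s1*, against 6.02% and 3.85% of all windows for the first pair and 0.819% and 0.113% for the D-box forms. None of the motifs searched overlapped another in these windows. A match of letters is a description and does not show binding.

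In *Clock* mutant skin, all 7 complement genes had a lower mean intensity than in WT skin, with *C1qa* at 70.4% and *C1qc* at 79.8% of the WT level, while no gene passed the adjusted threshold. The log2 differences, *Clock* mutant minus WT taking each gene at its brightest probe set, had a median of -0.26 and ran from -0.51 for *C1qa* to -0.12 for *Serping1*. The median over all 27022 tested probe sets was -0.02. All 11 probe sets of the 7 genes had a difference below 0, as did 53.5% of all tested probe sets and 43.1% of the 6756 brightest of these. The WT means of the 11 ran from 345.5 for *Cfb* to 9750 for *Serping1*, and which of them belong to the 6756 was not determined. In limma with Benjamini-Hochberg adjustment, 0 of the 11 passed an adjusted p of 0.05, against 0.0888% of all tested probe sets, 0.074% of them in the lower direction. At an unadjusted p under 0.05, 5 of the 11 were lower and none was higher, against 6.71% lower and 4.09% higher over all tested probe sets. In 9 of the 11, both mutant arrays lay below every WT array, a pattern shown by 15.1% of all tested probe sets. *C1qb* and *C2* enter with several probe sets each, and by gene 5 of 7 had this pattern. The members were chosen with earlier results of these data known. The counts therefore describe the members and do not test them against the other probe sets.

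These counts moved with the scaling of the arrays. The median intensity was 105.8 and 114.3 on the mutant arrays and 116.0 to 117.9 on the WT arrays. After centring each array on its median, all 11 differences were still negative, with a median of -0.14, but 2 were lower at an unadjusted p under 0.05 (3.62% of all tested probe sets) and 4 lay below WT without overlap (9.01%). By gene, 4 of 7 were lower at an unadjusted p under 0.05 with the deposited scaling and 2 after median centring. Median centring adds 0.09 to each difference, so that genes named below with a value between -0.09 and 0 turn positive under it. Leaving out mutant replicate 2 gave a count of 2 as well.

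**Figure D1:**
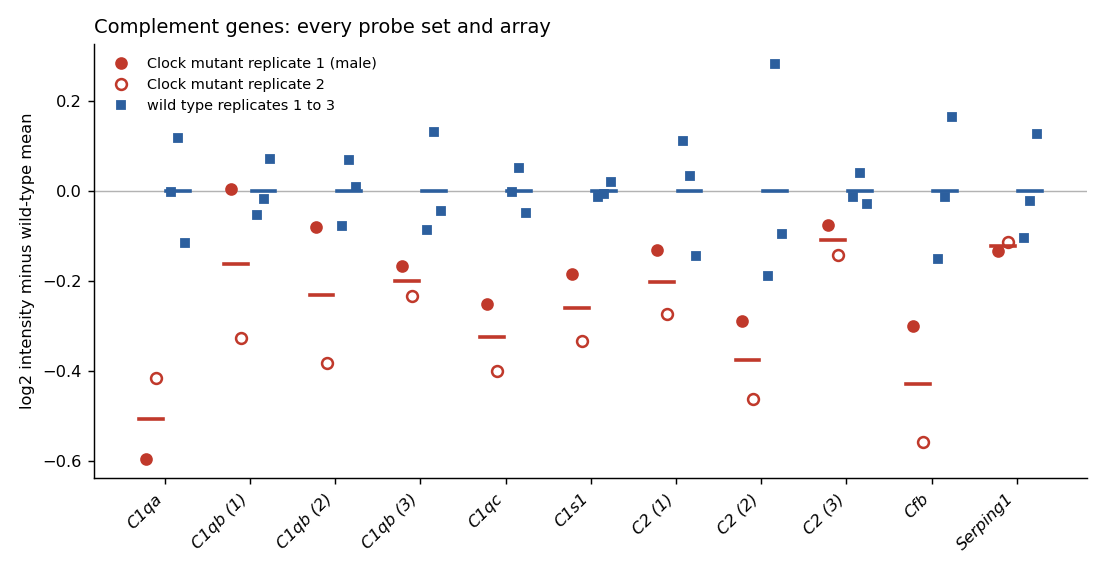
Points show, per array, log2 intensity relative to the WT mean of that probe set (vertical axis) for the 11 complement probe sets (horizontal axis, numbered from the brightest where a gene has several); red circles are *Clock* mutant arrays (filled, replicate 1), blue squares are WT arrays and bars are group means. The red bars all lie below 0, from -0.11 for the dimmest *C2* probe set to -0.51 for *C1qa*, and the groups overlap for the brightest *C1qb* and *C2* probe sets only.

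Among the C1q chain genes, *C1qa* (Entrez 12259), which encodes the A chain, had intensities of 2148 and 2431 in the mutants, against 3240, 3522 and 2997 in WT. Both mutant arrays lay well below the lowest WT array. Mutant skin averaged 2289 ± 200.6 (SD, n = 2) and WT skin 3253 ± 262.8 (SD, n = 3), a log2 difference of -0.51 (SE 0.097, 95% interval -0.73 to -0.29). In limma its unadjusted p was 0.000547, which ranked 96 among 27022, and its adjusted p was 0.153.

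*C1qc* (Entrez 12262), which encodes the C chain, had intensities of 2530 and 2281 in the mutants and 3004, 3117 and 2911 in WT. The groups again did not overlap. The log2 difference was -0.33 (SE 0.084, 95% interval -0.51 to -0.14, limma adjusted p = 0.273), which is 79.8% of the WT level.

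*C1qb*, which encodes the B chain, was read by 3 probe sets, and at the brightest of them (Entrez 12260) the genotypes overlapped. Its intensities were 2775 and 2204 in the mutants and 2666, 2732 and 2908 in WT, so that mutant replicate 1 lay between WT arrays and only replicate 2 lay below. The log2 difference was -0.16 (95% interval -0.40 to 0.08, limma adjusted p = 0.605). With mutant replicate 2 left out, this difference was 0.0045. The other *C1qb* probe sets, whose _x_at suffix marks probes that may also bind other transcripts, differed by -0.23 and -0.20. At the first of these the mutant arrays read 1095.3 and 887.0, against 1096.0, 1214.7 and 1163.8 in WT, so that replicate 1 fell short of the lowest WT array by less than 1 intensity unit. At the second they read 645.7 and 617.1, against 683.3, 794.0 and 703.2 in WT.

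The order of the differences, *C1qa* before *C1qc* before *C1qb*, was not resolved by 5 arrays. Taken within each array, the *C1qa* to *C1qb* log ratio was lower in mutant skin by 0.60 and 0.09 relative to its WT mean, a mean difference of -0.34 (exact permutation p = 0.3, two-sided). For *C1qa* against *C1qc* it was -0.18 (exact permutation p = 0.2), and for *C1qb* against *C1qc* it was 0.16 (exact permutation p = 0.3). Adjusted over the 3 pairs, each p was 0.3, and 0.1 is the smallest p that 2 against 3 arrays allow.

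**Figure D2:**
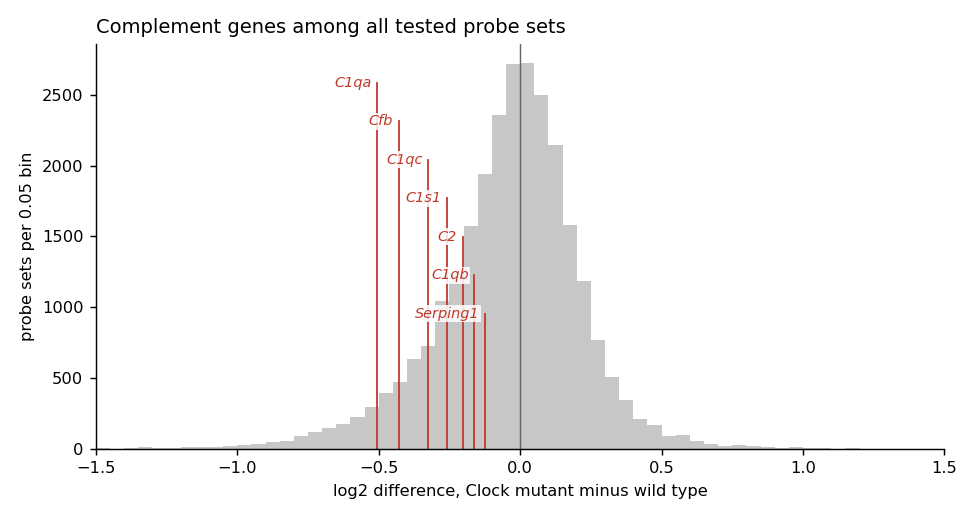
Grey bars count the 27022 tested probe sets by log2 difference, *Clock* mutant minus WT (horizontal axis, bins of 0.05), and red lines mark the brightest probe set of each of the 7 complement genes, with line heights set only to separate the names. All 7 lines fall to the left of 0, from *C1qa* at -0.51 to *Serping1* at -0.12, and *C1qa* and *Cfb* lie below the 10th percentile of the distribution, -0.36.

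Downstream of C1q, *C1s1* (Entrez 50908), which encodes the C1s protease, had intensities of 2551 and 2299 in the mutants and 2873, 2887 and 2938 in WT. The WT arrays were tightly grouped and both mutant arrays lay below them. Mutant skin averaged 2425 ± 177.8 (SD, n = 2) and WT skin 2899 ± 34.4 (SD, n = 3), and the log2 difference was -0.26 (SE 0.081, 95% interval -0.44 to -0.08, limma adjusted p = 0.35). The suffix of this probe set marks probes shared by several transcripts, so that signal from the related *C1s2* cannot be told apart from that of *C1s1*.

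*C2*, the gene of the protease precursor that C1s cleaves, had 3 probe sets with differences of -0.20, -0.38 and -0.11. At the brightest (Entrez 12263) the intensities were 886.4 and 802.3 in the mutants and 1048, 994.0 and 877.5 in WT, so that mutant replicate 1 stood above WT replicate 3. At the second they were 736.1 and 653.4 against 789.6, 1095 and 842.8, with no overlap but a wide WT spread (95% interval of the log2 difference -0.71 to -0.04, limma adjusted p = 0.429). At the third they were 592.7 and 565.5, against 619.0, 642.4 and 612.2 in WT. The groups were thus separate at both dimmer probe sets, which carry the _x_at suffix, and overlapped at the brightest.

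*Cfb* (Entrez 14962), the factor B gene and neighbour of *C2*, was the dimmest of the 7, with intensities of 279.5 and 233.7 in the mutants and 309.8, 341.2 and 385.6 in WT. Its log2 difference of -0.43, or 74.3% of the WT level, was the next after *C1qa* in size but had a wide interval (SE 0.159, 95% interval -0.79 to -0.07, limma adjusted p = 0.395). *Serping1* (Entrez 12258), the C1 inhibitor gene, had intensities of 8875 and 8993 in the mutants and 9049, 9584 and 10617 in WT. Although the groups did not overlap, the higher mutant array and the lowest WT array were close, and the log2 difference of -0.12 had an interval that included 0 (-0.30 to 0.06, limma adjusted p = 0.6).

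The remainder of the pathway was read from 4 further lists of classical and lectin, alternative and terminal, receptor and regulator genes, 47 in all. Of these, 38 had a probe set of their own and 22 passed the filter, the others being dim in both genotypes or not analysed here. None passed the adjusted threshold in limma, 4 were lower and 0 were higher at an unadjusted p under 0.05 (6.71% and 4.09% of all tested probe sets), and the median log2 difference was -0.06. Of the 22, 14 were below 0, against 53.5% of all tested probe sets. Both mutant arrays lay below every WT array in 8 and above every WT array in 3, against 15.1% and 12.8% of all tested probe sets.

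*C1ra*, which encodes the C1r protease and adjoins *C1s1* on chromosome 6, had intensities of 1217 and 1200 in the mutants and 1414, 1442 and 1478 in WT. The log2 difference was -0.26 (SE 0.087, limma adjusted p = 0.371), with no overlap of the groups. The lectin pathway genes in the same list did not share a direction: *Colec12*, a scavenger receptor collectin, was at -0.27, *Masp1*, a mannan-binding lectin protease, at -0.07, the ficolin genes *Fcna* and *Fcnb* at -0.06 and 0.23, and *Colec11*, a soluble collectin, at 0.35. Of these 6 genes, *C1ra* alone had an unadjusted p under 0.05, a threshold at which 6.71% of all tested probe sets were lower. The mannan-binding lectin genes *Mbl1* and *Mbl2* were below the filter.

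In the alternative pathway *Cfp*, which encodes properdin, the stabiliser of the convertase, had intensities of 718.6 and 745.5 in the mutants, against 852.8, 967.3 and 819.6 in WT. Its log2 difference was -0.26 (SE 0.111, limma adjusted p = 0.45), and its dimmer probe set was at 0.03. Of the terminal components, which form the membrane attack complex, *C9* was at -0.02 and *C6*, *C8a*, *C8b*, *C8g* and *Hc* were below the filter.

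Among 8 receptor genes tested, 6 had a negative difference (53.5% of all tested probe sets) and 5 had mutant arrays below all WT arrays (15.1%). *C5ar1*, the C5a receptor gene, had the largest difference, -0.68 (SE 0.244, limma adjusted p = 0.383), and its other probe set was at -0.66, but its intensities of 60.1 and 55.7 in the mutants and 85.5, 99.2 and 94.0 in WT were close to the filter of 56.7, where these values are noisy. *Lrp1*, a clearance receptor that binds C1q among many ligands, had intensities of 4062 and 4394 in the mutants and 4851, 4839 and 4887 in WT, a difference of -0.20 (SE 0.073, limma adjusted p = 0.384), and its far dimmer probe set was at 0.08. The integrin genes *Itgam* (-0.27) and *Itgax* (-0.16), which pair with *Itgb2* (-0.07) to form complement receptors, and the C3a receptor gene *C3ar1* (-0.12) had unadjusted p values over 0.05.

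Of 6 regulator genes tested, which protect host cells, 4 had a difference above 0 and 2 below, with a median of 0.15. Of all tested probe sets, 53.5% were below 0. *Clu*, encoding clusterin, which holds back the terminal complex, was at 0.15, with intensities of 2391 and 2252 in the mutants and 2048, 2068 and 2142 in WT. *Cr1l*, the rodent inhibitor Crry, was at 0.15 as well, with 1642 and 1759 in the mutants and 1588, 1549 and 1449 in WT. The other 3 *Clu* probe sets ran from -0.05 to 0.13, and the other tested *Cr1l* probe set was at -0.18. At the brightest probe set of both genes the groups did not overlap, which 12.8% of all tested probe sets showed in this direction. *Vtn* (vitronectin) was at 0.22 and its dimmer probe set at -0.09, and *Cd46* was at 0.21 (95% interval -0.39 to 0.81). For *Cd46* the groups overlapped, and its intensities were close to the filter, at 83.7 and 91.4 in the mutants and 67.1, 68.0 and 95.3 in WT. The membrane inhibitors *Cd55* and *Cd59a* were at -0.02 and -0.06, and a dimmer *Cd55* probe set was at -0.15 with mutant arrays below all WT arrays. None of the 6 had an unadjusted p under 0.05, and the difference in direction between regulators and the other lists was not tested.

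**Figure D3:**
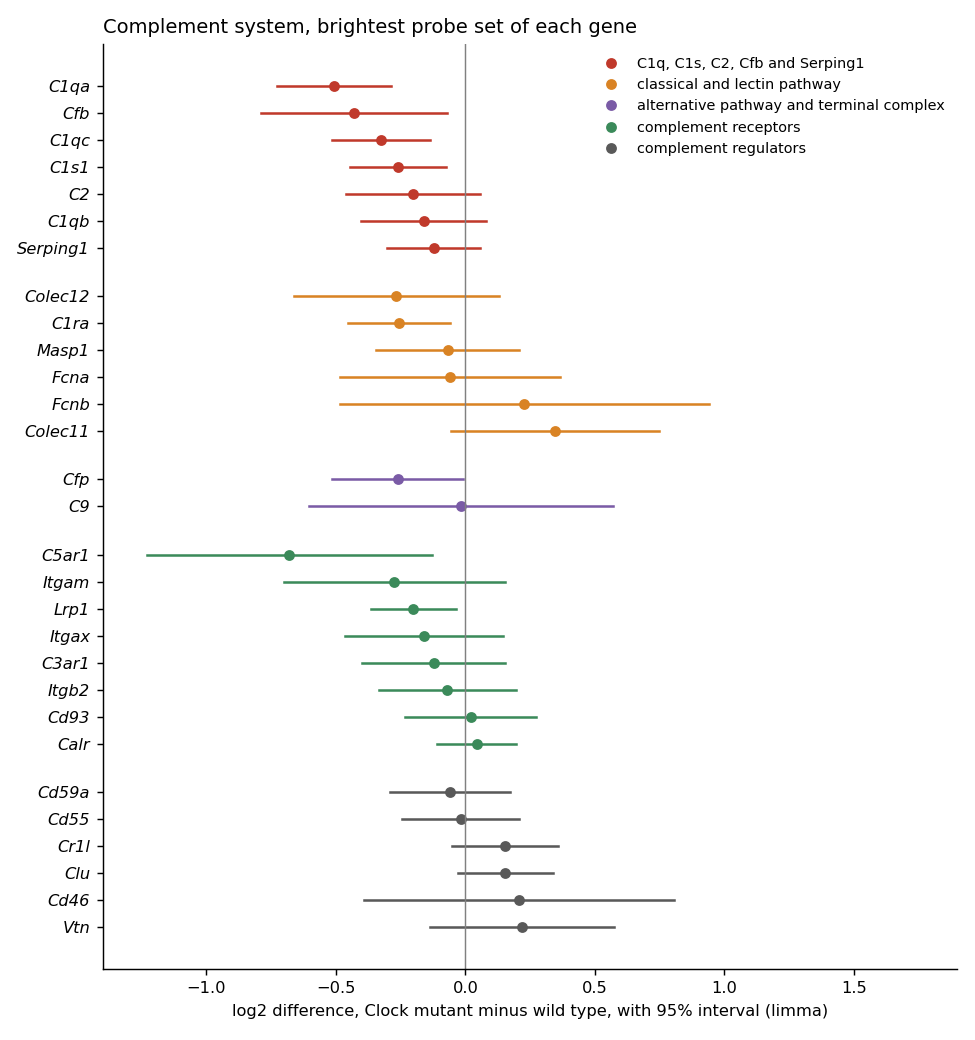
Points are log2 differences, *Clock* mutant minus WT (horizontal axis), at the brightest probe set of each of 29 genes of the complement system (vertical axis), with 95% intervals from limma, coloured by list. The 7 genes in red lie between -0.51 and -0.12, *C1ra* and *Cfp* at -0.26, and 4 of the 6 regulators at the bottom lie above 0.

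Since macrophages are a main source of C1q, the chain genes were set beside a list of 16 macrophage markers, of which 14 were tested. These showed no shared direction: 6 were below 0 and 8 above, with a median log2 difference of 0.02, against 53.5% of all tested probe sets below 0. At an unadjusted p under 0.05, 1 of the 14 was lower, the LPS co-receptor gene *Cd14* (-0.35, limma adjusted p = 0.416). Of all tested probe sets, 6.71% were lower at this threshold. *Csf1r*, the receptor that macrophages need for survival, had intensities of 6902 and 6253 in the mutants and 6353, 5918 and 6762 in WT at its brightest probe set, while the dimmest of its 3 probe sets was at -0.18 with mutant arrays below all WT arrays. *Tyrobp*, a signalling adaptor of myeloid cells, had 2581 and 2362 in the mutants and 2394, 2492 and 2496 in WT, and *Adgre1*, which encodes F4/80, had 1466 and 1129 in the mutants and 1061, 1229 and 1322 in WT. At the brightest probe set of each of these genes the genotypes overlapped. They overlapped as well for *Cd74* and *Lyz2*, the brightest markers tested, which were among the 6 below 0, each at -0.15. The scavenger receptor gene *Cd163* (-0.22) had mutant arrays below all WT arrays, and *Aif1* (0.51), a calcium-binding protein gene of macrophages, had them above, at intensities of at most 157.4.

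The mutant arrays differed from each other in this list. Relative to the WT mean, the median over the markers was 0.17 in mutant replicate 1 and -0.12 in replicate 2, against -0.02 to 0.03 in WT. The mean over the C1q chain genes was -0.28 and -0.38 in the mutants and -0.03 to 0.05 in WT. The chains were not alike in this. In mutant replicates 1 and 2, *C1qa* was at -0.60 and -0.42 and *C1qc* at -0.25 and -0.40. *C1qb*, at 0.0045 and -0.33, differed between the mutant arrays as the markers did. Summed intensities of the 14 markers were 42977 and 39026 in the mutants and 41499 to 45443 in WT. No marker was at 0, and *Cx3cr1* was below the filter. The part of macrophage number in the C1q values was not tested.

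**Figure D4:**
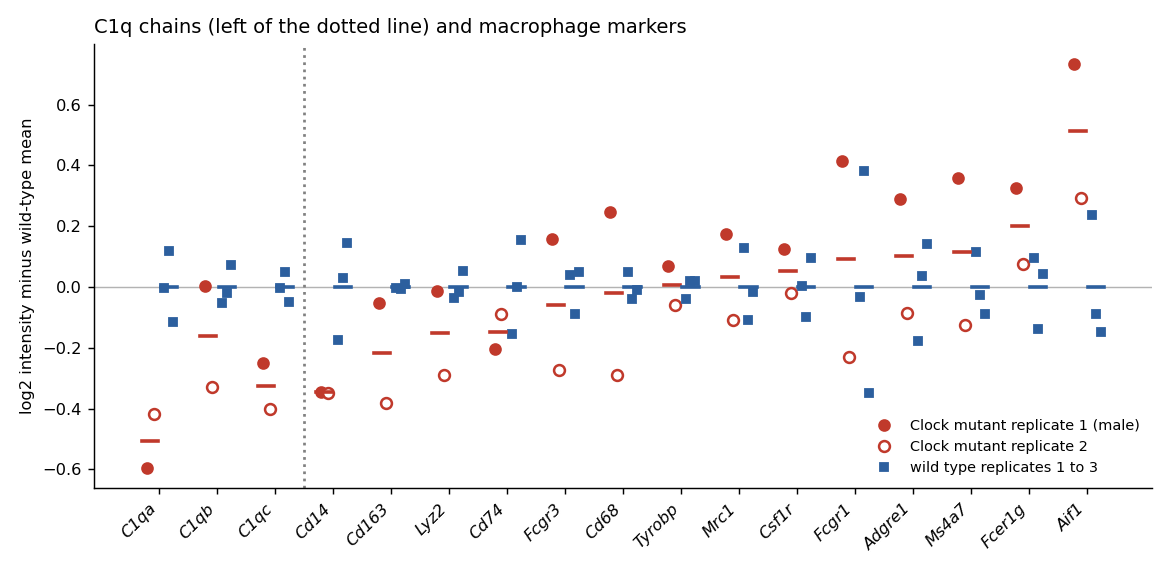
Points show, per array, log2 intensity relative to the WT mean (vertical axis) for the C1q chain genes, left of the dotted line, and 14 macrophage markers, ordered by difference (horizontal axis); red circles are *Clock* mutant arrays (filled, replicate 1), blue squares are WT arrays and bars are group means. Replicate 1 lies above replicate 2 for most markers, with medians of 0.17 and -0.12. Both lie below all WT arrays for *C1qa* and *C1qc*, but for *C1qb* replicate 1 lies among the WT arrays and above replicate 2.

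Markers of other skin cells gave the following background. Over all tested probe sets, for comparison, 53.5% had a difference below 0. At an unadjusted p under 0.05 in limma, 6.71% of them were lower and 4.09% higher. Over 9 fibroblast genes, a cell type that makes C1r, C1s and C1 inhibitor, the median difference was -0.01, and at an unadjusted p under 0.05 0 were lower and 1, *Thy1*, was higher. Over 11 adipocyte genes it was -0.17, with 10 below 0 and 3 lower at an unadjusted p under 0.05, and by array it was 0.03 and -0.31 in mutant replicates 1 and 2 and -0.12 to 0.13 in WT. The median over 7 keratinocyte genes was -0.01. Over 5 mast cell genes it was -0.18, with 3 below 0, and *Mcpt4*, a mast cell protease gene, was at -0.30 with no overlap (limma adjusted p = 0.302). Over 3 tested hepatocyte genes it was -0.29, with all 3 below 0. *Alb*, the albumin gene, had intensities of 131.8 and 153.8 in the mutants and 239.4, 333.3 and 359.7 in WT, a difference of -1.11 (limma adjusted p = 0.141) and larger than that of any of the 7 complement genes. The part of these cell types in the complement values was not tested. Over 6 tested hair shaft and root sheath genes the median difference was 2.09. All 6 were higher at an unadjusted p under 0.05 in limma, against 4.09% of all tested probe sets. These genes were high on mutant replicate 1, with a median of 3.20 relative to the WT mean. The same median was 0.98 on replicate 2 and 0.99, -0.53 and -0.45 in WT. Whether the arrays differed in hair cycle stage within the telogen label was not tested. The 3' to 5' signal ratios of the control probe sets for *Gapdh* and beta-actin, which rise as RNA breaks down, were 1.06 and 0.988 (*Gapdh*) and 1.21 and 1.23 (beta-actin) in the mutants, against 0.861 to 0.955 and 1.14 to 1.20 in WT. Both ratios were thus slightly higher on the mutant arrays. The same ratio for pyruvate carboxylase was 54.1 and 27.8 in the mutants and 19.1 to 28.1 in WT, so that replicate 1 alone stood apart in this ratio. Its 5' signal was dim, at 40.4 and 57.5 in the mutants and 77.9 to 97.3 in WT, and thus lower on both mutant arrays. The part of these control signals in the complement values was not tested. With the male mutant left out, 1 female mutant array against 3 female WT arrays gave differences of -0.42 for *C1qa*, -0.40 for *C1qc*, -0.33 for *C1s1* and -0.56 for *Cfb*, with 0 past the adjusted threshold. That single mutant array adds no spread of its own, and in limma it was assumed to vary like the WT arrays.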

How the data were processed

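The deposited values were MAS5 signal intensities, 1 per probe set and array, made by the authors with MAS5 (version not given in the sources used here). The algorithm takes off a mismatch estimate and applies 1 scaling factor per array, which gave every array a 2% trimmed mean of 500.0, and its values are noisy at low intensity. Intensities under 1 were set to 1 and log2 was taken. Of 45037 probe sets that are not controls, 34945 had 1 gene symbol in the platform annotation, and 18015 were left out because their mean over arrays was below the 40th percentile (an intensity of 56.7). *Clock* mutant and WT arrays were compared in 1 fit with limma 3.58.1 in R 4.3.3 (eBayes with an intensity trend, two-sided, 3 residual and 6.04 prior degrees of freedom), adjusted by Benjamini-Hochberg over 27022 probe sets, threshold 0.05. A test for these arrays is not given in the methods. The step was checked on simulated data. Each gene is represented by the brightest of its probe sets. Every probe set of the 7 genes is named. From the other lists some genes with the smallest p are named. Others, such as *Csf1r*, *Tyrobp*, *Adgre1*, *Ifit1* and *Ifit3*, were named without regard to p. Members and lists were chosen with earlier results of these data known. The number of arrays limits the precision. RefSeq (GRCm38.p6) gave promoter windows and neighbouring genes, and the values themselves carry no genome positions. Alternatives were another scaling, filter, offset or prior, averaging the probe sets of each gene, blocking on the replicate number, and dropping arrays in turn.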

Additional observations from a re-analysis of the deposited data

How the results depend on the processing

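Of 150 differences of the 11 probe sets and 7 genes over 14 alternatives, 149 stayed negative and 1 turned, *C1qb* at its brightest probe set, which was at 0.0045 without *Clock* mutant replicate 2. Many of the 150 could not turn. Another filter, no intensity trend or a robust prior leaves each difference as it was and changes only its p. Averaging probe sets likewise repeats the value of a gene with 1 probe set. No complement gene passed the adjusted threshold in limma in 13 alternatives, and 1, *C1qa*, did with the replicate block (-0.56, adjusted p = 0.0336). In that fit WT replicate 3, which has no mutant array of its number, does not enter the difference. Leaving out WT replicate 3 gave the same *C1qa* difference, -0.56, with a limma adjusted p of 0.263. Arrays of the same number share only that number: their deviations correlated at 0.008 and 0.099. Over the alternatives *C1qa* ranged from -0.60 to -0.42 (adjusted p from 0.0336 to 0.59). The number of genes at an unadjusted p under 0.05 was 4, 2 after median centring, and 2 to 5 leaving out 1 array. The median over the 7 genes was -0.26, -0.28 with quantile normalization, -0.17 after median centring, and -0.33 to -0.18 leaving out 1 array. Median centring moved the median of all probe sets to 0.07, against -0.02 with the deposited scaling, and the share below 0 to 36.4%, against 53.5%. Of probe sets at an unadjusted p under 0.05, 62.1% were lower with the deposited scaling, 53.8% after quantile normalization and 29.3% after median centring. Over all probe sets, 24 passed the adjusted threshold, and 10 did without a filter, 0 without an intensity trend (2631 at an unadjusted p under 0.05), 106 with the replicate block, and 0 to 239 leaving out 1 array, 0 without WT replicate 2 (1570) or 3 (2193) and 239 without *Clock* mutant replicate 2. The cause was not tested.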

Other observations

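Factor B and other complement genes are induced with the acute phase and interferon response, and 13 of 17 genes of such a list were tested. Their median log2 difference was 0.04, with 6 below 0 and 7 above, against 53.5% of all tested probe sets below 0. In limma 0 passed the adjusted threshold, against 0.0888% of all tested probe sets. *Hp*, which encodes haptoglobin, a haemoglobin-binding protein, had intensities of 4502 and 4954 in *Clock* mutant skin and 5805, 6571 and 6764 in WT, a difference of -0.43 (SE 0.088, limma adjusted p = 0.177). *Nfkbia*, the inhibitor of NF-kappaB, was at -0.25 (limma adjusted p = 0.33), and its 5 probe sets lay between -0.35 and -0.19. *Lcn2*, encoding lipocalin 2, was at -0.53 (limma adjusted p = 0.462). The interferon-induced genes *Ifit1*, *Ifit3* and *Tap1* were at 0.36, 0.26 and 0.19, and *Ifit1* and *Ifit3* were highest on mutant replicate 1. *Hp*, *Nfkbia* and *Lcn2* were the 3 genes of the list at an unadjusted p under 0.05. All 3 were lower, as were 6.71% of all tested probe sets at this threshold.

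The genes whose 5 log2 values relative to the WT mean lay closest to the mean profile of the C1q chain genes, among 12948 genes, were *Gnao1*, *Mtmr12*, *Cep76*, *Farsa* and *Gm26910*, at root mean square differences of 0.008, 0.033, 0.036, 0.039 and 0.039. None of them is on the macrophage list, but with 14 tested markers among 12948 genes this absence says little. *Gnao1*, a G protein subunit gene, and *Gm26910* were dim, with intensities of at most 124.8 and 125.3.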
